A study of Mus musculus with 6 samples.

Results

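Death receptors and the caspase-8 signaling beneath them were followed through 9 genes: the receptors Fas, Tnfrsf10b, Tnfrsf1a and Tnfrsf1b, the ligand Tnfsf10, the adaptor Fadd, the protease Casp8, its relative Cflar and the kinase Ripk1. The genes were taken by name from the deposited expression table, entries sharing a symbol were summed, and all 9 were present among its 26082 gene names. All 9 also passed the filter for low values, a mean of at least 1 FPKM (fragments scaled by transcript length and by the mapped fragments of a sample) over the 6 samples, which left 11130 genes for testing.

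Death receptors belong to the TNF receptor superfamily and carry a cytoplasmic death domain. Bound by its ligand, Fas or the TRAIL receptor encoded by Tnfrsf10b recruits FADD, whose death effector domain gathers procaspase-8 into chains where it becomes active, while c-FLIP, the product of Cflar, enters the same chains and restrains or tunes the protease. TNF receptor 1 first builds a membrane complex with RIPK1 and ubiquitin ligases that drives NF-κB signaling, and RIPK1, FADD and caspase-8 form a death complex when that signaling fails; in many hematopoietic cells FAS and the TRAIL receptor gene are known targets of p53.

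The samples are leukemia cells from the bone marrow of leukemic mice, 3 after vehicle and 3 after DS-5272, an inhibitor of the p53-MDM2 interaction, given by mouth at 80 mg/kg. Cells were collected 24 h after the dose and purified on a cell sorter, and their RNA was sequenced. All samples share the strain C57BL/6J and a transduced MLL-AF9 fusion gene, so the vehicle cells carry the oncogene as well. According to the methods, the model rests on retroviral transfer of MLL-AF9 into c-Kit+ bone marrow progenitors of either wild-type or p53-deficient mice. The leukemia was then passed repeatedly through recipient mice. Which of these genotypes gave the RNA samples is not stated there. The methods describe MLL-AF9 vectors that carry either GFP or a drug resistance gene, and GFP marks the leukemia cells in other experiments of the study, so a GFP gate may have been used here too. The gate set for the RNA samples, the age of the mice and whether the 6 samples descend from the same transduced culture are not given in the sources used here. For gating and sorting the methods refer to a supplementary figure, which was not among these sources. The labels number the samples 1 to 3 in each group without saying that each number is a separate animal, so p-values measure the spread between these samples.

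The FPKM values of a sample summed to 445316, 492100 and 501241 after vehicle (replicates 1, 2 and 3, the order kept below) and to 499229, 579884 and 661184 after DS-5272. Depth was estimated from the steps between low FPKM values, with each step taken as 1 fragment. The estimates were 43100000, 34800000 and 38100000 fragments in the vehicle samples and 32100000, 28100000 and 23200000 in the DS-5272 samples. By this estimate every DS-5272 sample was shallower than every vehicle sample. At these depths, and at the median length of its coding transcripts, the least covered of the 9 genes was Tnfsf10, with about 59 fragments in vehicle replicate 2 and 63 in vehicle replicate 3.

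The label of the cells was checked against defining genes of MLL-AF9 leukemia, named here after their values were seen. Meis1 lay between 66.1 and 110 FPKM over the 6 samples, Pbx3 between 128 and 158 FPKM and Myb between 156 and 226 FPKM, so all 3 were abundant in both groups. Myb was lower in each DS-5272 sample than in any vehicle sample (limma adjusted p = 0.12, or 0.037 when fitted with the replicate block). Mef2c, another gene of this list, stayed at or below 0.295 FPKM after vehicle and stood between 1.54 and 2.45 FPKM after DS-5272, so the list was not abundant as a whole. The progenitor receptor Kit stood at 45.0, 32.3 and 30.5 FPKM after vehicle and at 12.1, 9.70 and 4.94 FPKM after DS-5272. The myeloid integrin Itgam stood at 140, 175 and 190 FPKM after vehicle, below Myb in each sample, and at 530, 646 and 1087 FPKM after DS-5272, where it led the leukemia list.

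Markers of other bone marrow cells were summed per sample over fixed lists, and no gene of these lists was at 0 in all samples. The 10 NK cell markers summed to between 1.65 and 2.93 FPKM after vehicle and to between 3.50 and 5.48 FPKM after DS-5272, with 8 of the 10 below 1 FPKM in all samples and Nkg7 leading in the vehicle samples. The NK cell sum of every DS-5272 sample was above that of every vehicle sample. The 9 T cell markers with an entry summed to between 4.55 and 7.81 FPKM over the 6 samples, led by Lat except in DS-5272 replicate 1, and the 8 B cell markers to between 3.58 and 5.40 FPKM, led by Cd79b. Lat and Cd79b stood at levels like those of the lowest of the 9 genes, so these sums do not show that lymphoid cells were absent.

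Myeloid markers were more abundant. Neutrophil markers summed to 417, 1857 and 2500 FPKM after vehicle and to 4942, 12580 and 21120 FPKM after DS-5272, with 9 of 11 genes higher in limma (adjusted p under 0.05) and 11 with the replicate block, where of all genes 24.2% and 30.3% were higher. Of these risers 1 had a vehicle mean below 1 FPKM and was tested only through its DS-5272 samples. Lcn2 led this list after vehicle but not in DS-5272 replicates 2 and 3. Bone marrow macrophage markers summed to 78.7, 105 and 136 FPKM after vehicle and to 489, 218 and 284 FPKM after DS-5272, with 5 of 11 genes higher and 7 with the replicate block, against the same shares of all genes. Of the 7, 1 was likewise tested only through its DS-5272 samples. Vcam1 led this list after vehicle but not in DS-5272 replicates 2 and 3, and did not pass the threshold itself. The erythroid sum was 17.3, 21.9 and 21.5 FPKM after vehicle and 99.9, 30.4 and 14.3 FPKM after DS-5272. This sum holds opposite moves, 1 of its 3 tested genes having risen and 1 fallen. Tfrc made up most of it after vehicle, at 13.5, 19.5 and 19.6 FPKM, and stood at 8.99, 13.5 and 6.08 FPKM after DS-5272. Hba-a1 stood at 2.39, 1.05 and 0.598 FPKM against 84.2, 14.7 and 7.07 FPKM. The Hba-a1 call was lost without vehicle replicate 2 (adjusted p = 0.0575 from limma) or vehicle replicate 3 (0.0551). The stromal and endothelial sum, mostly Pecam1, was 60.1, 31.2 and 29.1 FPKM against 113, 73.4 and 81.1 FPKM. Of its 2 tested genes 1 was higher, and 2 with the replicate block, against the same shares of all genes. The call of Pecam1, the riser without the block, was lost in 7 of the 17 alternatives without a minimum fold change. A gate on GFP is meant to leave out cells without the vector, but how pure the sorted cells were is not given in the sources used here. Maturation of the leukemia cells and a larger share of other myeloid cells cannot be told apart in these values, and the part of either in the results was not tested.

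The check of treatment looked at the mRNA of p53, Trp53, and at that of 2 p53 targets. These values do not give the level of p53 protein. Mdm2 stood at 27.1, 36.3 and 40.0 FPKM after vehicle and at 42.6, 78.8 and 210 FPKM after DS-5272, and Cdkn1a at 14.8, 28.1 and 25.5 FPKM against 32.3, 117 and 485 FPKM. Both genes separated the groups, with DS-5272 replicate 1 just above the vehicle samples and DS-5272 replicate 3 far above. In limma neither passed the threshold (adjusted p = 0.073 for Mdm2 and 0.061 for Cdkn1a), and both did in the fit with a replicate block (adjusted p = 0.015 and 0.014 from limma), without DS-5272 replicate 1 (0.017 and 0.011) and without replicate 1 of both groups (0.047 and 0.032). Trp53 mRNA fell by 0.91 on the log2 scale (adjusted p = 0.0086 from limma).

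Among the receptors, Fas showed the largest estimated change of the 9 genes. Fas, on chromosome 19 (chr19:34290666-34327772 of GRCm38, plus strand), encodes the receptor of FAS ligand and was present at 6.77, 9.59 and 9.04 FPKM after vehicle and at 17.0, 24.8 and 49.6 FPKM after DS-5272. All DS-5272 samples lay above all vehicle samples but spread widely among themselves, with DS-5272 replicate 3 highest. The neutrophil marker sum and the p53 targets Mdm2 and Cdkn1a, all given above, had the same order among the DS-5272 samples. What part any of these has in the Fas values was not tested. As these are bulk samples, more Fas mRNA per cell and more cells that express it cannot be told apart, which holds for each gene here.

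**Figure D1:**
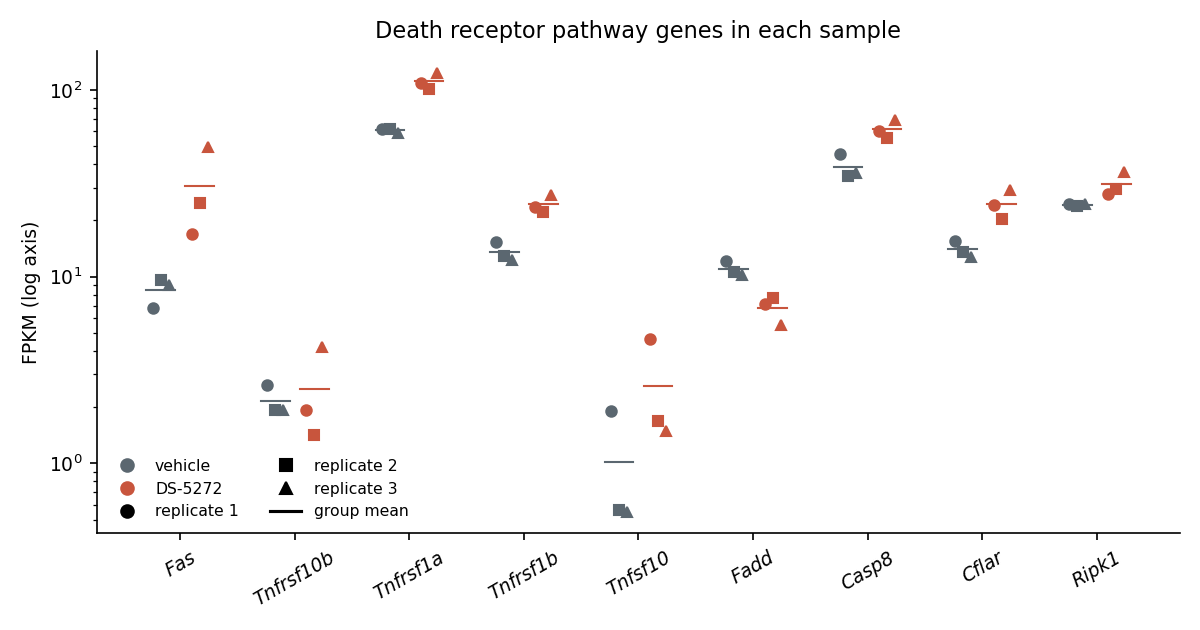
FPKM of the 9 genes in each sample, on a log axis; grey points are vehicle and red points DS-5272 samples, the shape gives the replicate number and the line the group mean. Fas ran from 6.77 to 9.59 FPKM after vehicle and from 17.0 to 49.6 FPKM after DS-5272, Fadd lay lower in all DS-5272 samples, and the groups overlapped for Tnfrsf10b and Tnfsf10.

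The means of Fas were 8.47 ± 1.50 FPKM (SD, n = 3) after vehicle and 30.5 ± 17.0 FPKM (SD, n = 3) after DS-5272. In limma on log2(FPKM + 1), the scale of every log2 fold change here, which understates the change of low genes, the rise of Fas was 1.61 with a standard error of 0.36 (95% interval 0.75 to 2.47, adjusted p = 0.013). The threshold was an adjusted p of 0.05 over all 11130 genes. Over the alternative settings the estimate ran from 1.20 to 1.94, with an adjusted p from limma of at most 0.045.

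Tnfrsf1a encodes TNF receptor 1, the TNF receptor with a death domain, and lies on chromosome 6 (chr6:125349362-125362484, plus strand). Its FPKM was 61.8, 61.6 and 58.7 in the vehicle samples and 109, 101 and 124 in the DS-5272 samples. The vehicle samples were nearly equal and the DS-5272 samples all stood well above them. Tnfrsf1a rose by 0.86 in log2 fold change (adjusted p = 0.0026 from limma, standard error 0.11), higher in 3 of 3 same-numbered pairs.

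Tnfrsf1b encodes TNF receptor 2, which binds the same ligand but has no death domain, and lies on chromosome 4 (chr4:145213463-145246870, minus strand). It stood at 15.4, 12.8 and 12.3 FPKM after vehicle and at 23.6, 22.3 and 27.3 FPKM after DS-5272. The groups did not overlap, and the rise in log2 fold change was 0.81 (adjusted p = 0.0046 from limma, standard error 0.13).

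The proportion between the TNF receptors overlapped between the groups. The Tnfrsf1b to Tnfrsf1a ratio of FPKM, a quantity per length, was 0.248, 0.208 and 0.210 in the vehicle samples and 0.217, 0.221 and 0.221 in the DS-5272 samples. The DS-5272 ratios fell inside the vehicle range, and the mean log2 difference was −0.013 (exact permutation test, two-sided, p = 1, where 3 against 3 samples cannot go below 0.1). Its sign turned without vehicle replicate 1 (0.070).

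Tnfrsf10b, the mouse gene for the death-domain receptor of TRAIL on chromosome 14 (chr14:69767472-69784411, plus strand), was far less abundant. It stood at 2.63, 1.93 and 1.93 FPKM after vehicle and at 1.94, 1.41 and 4.19 FPKM after DS-5272. DS-5272 replicate 3 was the highest of the 6 samples and DS-5272 replicate 2 the lowest, so the groups overlapped. The log2 fold change was 0.081 with a 95% interval of −0.61 to 0.77 (adjusted p = 0.83 from limma), and its sign turned without DS-5272 replicate 3 (−0.24). It was also below 0 after rescaling to a common total (−0.11) or upper quartile (−0.022), which lowered the median of all genes to −0.19 and −0.081, so these turns do not speak to the gene itself.

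The place of Fas among death-domain receptors was also taken as a share. Of the summed FPKM of Fas, Tnfrsf10b and Tnfrsf1a, Fas held 9.51%, 13.1% and 13% in the vehicle samples and 13.3%, 19.5% and 28.0% in the DS-5272 samples. DS-5272 replicate 1 lay only just above vehicle replicate 2, and DS-5272 replicate 3 stood apart. With Tnfrsf21, another receptor with a death domain, added to the sum, the shares were 6.76%, 9.48% and 9.01% against 9.41%, 13.1% and 19.8%, and DS-5272 replicate 1 fell below vehicle replicate 2, so the groups overlapped. Within every same-numbered pair, however, both shares were higher after DS-5272. They do not depend on how samples are scaled, were computed after the values were seen and were not tested.

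The promoters of Fas and Tnfrsf1b are shown as those of receptors that rose. In the RefSeq promoter window, which runs from 250 bases before to 50 bases after the start, Fas, Tnfrsf1a and Tnfrsf1b hold the core TTCNNNGAA of a STAT site. Casp8 and Cflar, which rose as well, do not hold it, while Ripk1, which did not pass, holds it at 2 places in 1 of its entries. Fadd, which fell, and Tnfsf10, which did not pass without the replicate block, do not hold it either. Tnfrsf10b, the receptor that did not rise, had no promoter entry. Whether the core goes with the changes was not tested. Over 32841 mouse promoters of this length, 8.30% hold it, searched on both strands. Of the 9 genes 8 had a promoter entry, with 9 entries in all. The RefSeq start of an entry need not be the GENCODE start of the gene. The Casp8 window begins at chr1:58802252, inside the gene, which starts at 58795374 in GENCODE, so the stretch at that start was not searched. The windows of Tnfrsf1a and of the Ripk1 entry with the core also begin inside the gene as GENCODE places it. The motifs were chosen after these sequences had been seen, and a match describes letters only. The 250 bases before the start are printed 5′ to 3′ with matches in capitals for Fas (chr19:34290409-34290658, GRCm38.p6, plus strand) and Tnfrsf1b (chr4:145246871-145247120, GRCm38.p6, minus strand).
Fas: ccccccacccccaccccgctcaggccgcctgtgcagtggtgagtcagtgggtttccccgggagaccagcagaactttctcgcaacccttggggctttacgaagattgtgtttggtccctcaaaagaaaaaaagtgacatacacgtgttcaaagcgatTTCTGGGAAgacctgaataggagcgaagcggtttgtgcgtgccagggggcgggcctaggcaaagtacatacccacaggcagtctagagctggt
Tnfrsf1b: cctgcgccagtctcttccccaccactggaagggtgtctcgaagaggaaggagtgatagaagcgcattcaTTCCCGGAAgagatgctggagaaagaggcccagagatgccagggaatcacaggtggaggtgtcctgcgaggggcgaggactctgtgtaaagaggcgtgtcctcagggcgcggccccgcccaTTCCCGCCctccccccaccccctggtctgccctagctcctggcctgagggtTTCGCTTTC

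In Fas the capitals mark the STAT core, 93 to 85 bases before the start. In Tnfrsf1b they mark the same core from 181 to 173 bases before the start, then a match to the E2F core GGCGGGAA on the other strand from 60 to 53 bases, and at the start itself the interferon-stimulated response element core GAAANNGAA, again on the other strand, from 9 to 1 bases. The last of these also occurs across the start of Ripk1 in the same entry, where it overlaps the STAT core, and after the start of Cflar. It is held by 8.56% of the 32841 promoters and the E2F core by 2.19%. Neither the NF-κB site (8.46% of promoters) nor the p53 half-site (8.36%) had a match in the windows of the 8 genes, which says only that these letters are not in these windows.

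Tnfsf10 encodes TRAIL, the ligand of the Tnfrsf10b receptor, and lies on chromosome 3 (chr3:27317028-27342427, plus strand). It was the least abundant of the 9 genes after vehicle, at 1.92, 0.565 and 0.552 FPKM, and stood at 4.64, 1.68 and 1.48 FPKM after DS-5272. Replicate 1 was the highest sample in both groups, and vehicle replicate 1 lay above DS-5272 replicates 2 and 3, so the groups overlapped.

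Within same-numbered pairs, however, Tnfsf10 was 2.42, 2.97 and 2.69 times as high after DS-5272. The log2 fold change of 0.80 (standard error 0.39, 95% interval −0.13 to 1.73) had an adjusted p of 0.13 from limma without the block and of 0.0051 from limma with the replicate block. Without DS-5272 replicate 1 the estimate was 0.43 (adjusted p = 0.29 from limma), the lowest with 1 sample left out. Without replicate 1 of both groups, an alternative added after values were seen, its adjusted p from limma was 0.022. Replicate 1 of DS-5272 also had the highest NK cell, T cell, erythroid, macrophage and stromal and endothelial marker sums, and the part of such cells in the Tnfsf10 values was not tested.

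The other ligands of these receptors were of unlike abundance. Fasl, the ligand of Fas, stayed at or below 0.231 FPKM in all samples and was not tested. Tnf, the ligand of both TNF receptors, stood at 4.31, 35.6 and 68.7 FPKM after vehicle and at 19.9, 133 and 159 FPKM after DS-5272. The replicate 1 samples were the lowest of each group, the groups overlapped, and the pairs differed by 4.61, 3.73 and 2.32 times. Its log2 fold change of 1.68 (standard error 1.13) had an adjusted p of 0.25 from limma, which was 0.0015 with the replicate block. The estimate was 0.60 without vehicle replicate 1 and 2.62 without DS-5272 replicate 1, and without replicate 1 of both groups its adjusted p was 0.032 from limma.

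The adaptor moved the other way. Fadd, on chromosome 7 (chr7:144577318-144582463, minus strand), links the receptors to caspase-8 and stood at 12.1, 10.6 and 10.2 FPKM after vehicle and at 7.10, 7.73 and 5.48 FPKM after DS-5272. All DS-5272 samples lay below all vehicle samples, with DS-5272 replicate 3 lowest. The means were 11.0 ± 1.0 FPKM (SD, n = 3) and 6.77 ± 1.16 FPKM (SD, n = 3). Fadd fell by 0.63 on the log2 scale (standard error 0.14, adjusted p = 0.013 from limma), and the call was lost when replicate 1 of both groups was left out (log2 fold change −0.60, adjusted p = 0.058 from limma).

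Fadd is the sole member that fell, and its promoter is shown for comparison with those of the receptors. The 250 bases before its RefSeq start (chr7:144582442-144582691, GRCm38.p6, minus strand) are printed 5′ to 3′, and the capitals mark the E2F core GGCGGGAA from 13 to 6 bases before the start. The last 22 bases of this stretch belong to an exon of Fadd in the GENCODE annotation, which places the start further upstream.
Fadd: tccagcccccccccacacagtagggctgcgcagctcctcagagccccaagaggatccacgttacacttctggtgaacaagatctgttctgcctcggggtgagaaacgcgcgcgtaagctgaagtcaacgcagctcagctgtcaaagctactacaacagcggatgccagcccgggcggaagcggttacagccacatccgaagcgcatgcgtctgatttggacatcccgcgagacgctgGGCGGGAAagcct

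Casp8 encodes the initiator protease, lies on chromosome 1 (chr1:58795374-58847503, plus strand) and was the second most abundant of the 9 genes. It stood at 45.1, 34.7 and 35.8 FPKM after vehicle and at 60.1, 55.3 and 69.1 FPKM after DS-5272. Vehicle replicate 1 was above its group but below every DS-5272 sample. The rise was 0.66 in log2 fold change (adjusted p = 0.010 from limma, standard error 0.14). It fell short of the threshold after rescaling to a common total (log2 fold change 0.40, adjusted p = 0.090 from limma). That rescaling lowered the median of all genes to −0.19. Casp8 lay 0.621 above the median as deposited and 0.596 above it with the common total.

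Cflar encodes c-FLIP and is the neighbor of Casp8 on the same strand of chromosome 1 (chr1:58711508-58758884), with 36489 bases between the end of Cflar and the start of Casp8. It stood at 15.5, 13.6 and 12.8 FPKM after vehicle and at 24.3, 20.4 and 29.0 FPKM after DS-5272. The groups did not overlap, and Cflar rose by 0.76 in log2 fold change (adjusted p = 0.0083 from limma, standard error 0.15). The values count all Cflar transcripts together, so the long and short forms of c-FLIP were not told apart.

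Of the 4 genes around this pair, 3 were tested and none passed the threshold. Ndufb3, upstream of Cflar, had a log2 fold change of −0.069 and Trak2, downstream of Casp8, of −0.10, while Stradb, the next gene, had 0.39 (adjusted p = 0.63, 0.44 and 0.092 from limma). Stradb passed with the replicate block (adjusted p = 0.036 from limma) and without DS-5272 replicate 2 (0.022), and Ndufb3 was called lower with a common total (0.029) and with quantile normalization (0.022). Als2cr12 stayed at or below 0.264 FPKM and was not tested.

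The proportion of the inhibitor to the protease overlapped between the groups as well. The Cflar to Casp8 ratio of FPKM was 0.345, 0.391 and 0.358 in the vehicle samples and 0.405, 0.368 and 0.420 in the DS-5272 samples. DS-5272 replicate 2 fell among the vehicle values, and the mean log2 difference of 0.13 had p = 0.2 in the exact permutation test (two-sided). The ratio of Fadd to Casp8, added after the values were seen and not tested, was 0.268, 0.304 and 0.285 in the vehicle samples and 0.118, 0.140 and 0.0793 in the DS-5272 samples, without overlap.

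**Figure D2:**
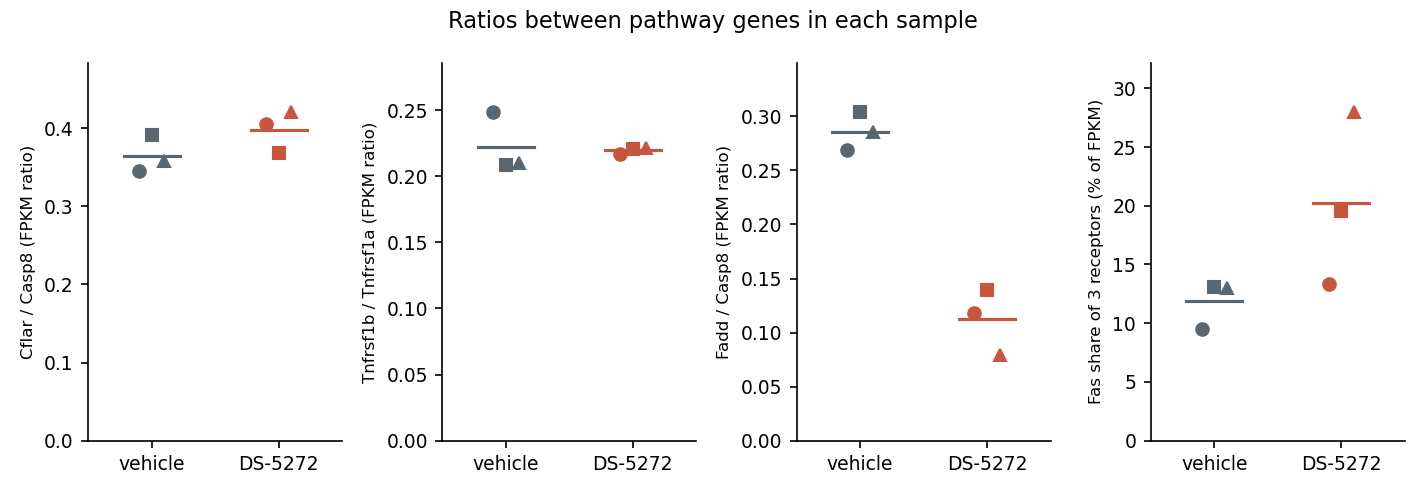
Ratios of FPKM between genes in each sample; grey points are vehicle and red points DS-5272 samples, the shape gives the replicate number as in the plot of FPKM and the line the group mean. The Cflar to Casp8 and Tnfrsf1b to Tnfrsf1a ratios overlap between the groups, the Fadd to Casp8 ratio lies between 0.268 and 0.304 after vehicle and between 0.0793 and 0.140 after DS-5272, and the share of Fas in 3 receptors reaches 28.0% in DS-5272 replicate 3.

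Ripk1, on chromosome 13 (chr13:34002363-34037147, plus strand), encodes the kinase that sits at the TNF receptor 1 complex. It stood at 24.4, 23.7 and 24.6 FPKM after vehicle and at 27.7, 29.5 and 36.2 FPKM after DS-5272. The vehicle samples were close together and all DS-5272 samples lay above them. The log2 fold change of 0.34 (95% interval 0.057 to 0.62) just missed the threshold (adjusted p = 0.054 from limma), and passed it with the replicate block (adjusted p = 0.044 from limma), with the median ratio scaling (0.039), with the filter at 5 FPKM (0.049) and without DS-5272 replicate 1 (0.033). It did not pass in the other alternatives. After rescaling to a common total its log2 fold change was 0.081 (adjusted p = 0.53 from limma). Ripk1 lay 0.297 above the median of all genes as deposited and 0.275 above it with the common total.

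Exons of Ripk1 overlap those of Serpinb6a on the other strand, which stood between 10.3 and 13.8 FPKM after vehicle and between 11.1 and 23.9 FPKM after DS-5272, and exons of Fadd overlap Faddos on the other strand. Exons of Ripk1 also overlap Gm17084 on the same strand, whose fragments could not be set apart by strand. The libraries were strand-specific, but whether fragments were counted by strand is not given in the sources used here, so fragments of any of these neighbors may be included.

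Of the 9 genes, 5 rose and 1 fell at an adjusted p under 0.05 from limma. The other 3 did not pass. Over all 11130 genes 24.2% rose and 22% fell. With the replicate block 7 of the 9 rose and 1 fell, against 30.3% and 24.9% of all genes, the genes gained being Tnfsf10 and Ripk1. The groups did not overlap for 6 genes that were higher and 1 that was lower after DS-5272, against 32.1% and 29.7% of all genes. The median log2 fold change of the 9 genes was 0.76 and that of all genes 0.042. The 9 genes were chosen with earlier results known, so these counts describe them and are not a test.

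**Figure D3:**
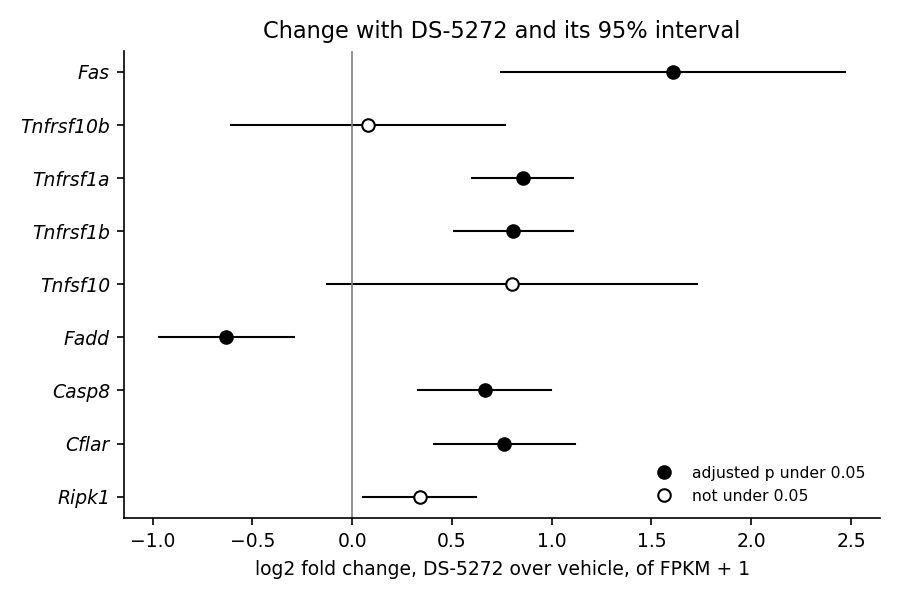
Log2 fold change of FPKM + 1 between DS-5272 and vehicle samples for the 9 genes, with its 95% interval from limma; filled points passed an adjusted p of 0.05. Fas leads at 1.61, Fadd is the gene below 0 at −0.63, and the intervals of Tnfrsf10b and Tnfsf10 include 0.

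These changes shift with the scaling of the samples, and the cause of the shift was not tested. The median over all genes moved from 0.042 as deposited to −0.081 with a common upper quartile and to −0.19 with a common total, and the share of risers among the changed genes went from 52.4% to 41.3% and 32.5%.

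The order of the levels differed between the groups in the place of Fas. After vehicle the order by mean FPKM was Tnfrsf1a at 60.7, Casp8 at 38.6, Ripk1 at 24.2, Cflar at 14.0, Tnfrsf1b at 13.5, Fadd at 11.0, Fas at 8.47, Tnfrsf10b at 2.16 and Tnfsf10 at 1.01. Among these, the samples overlapped between the neighbors Cflar and Tnfrsf1b only. After DS-5272 the mean of Fas, 30.5 FPKM, lay next to that of Ripk1, 31.1 FPKM, and the samples of Ripk1, Fas, Cflar and Tnfrsf1b overlapped from each to the next. Fadd then stood at 6.77 FPKM, below all of these, and Tnfsf10 at 2.60 and Tnfrsf10b at 2.51 FPKM overlapped.

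DS-5272 replicate 3 was the highest DS-5272 sample for 7 of the 9 genes and the lowest for Fadd and Tnfsf10. It also had the largest FPKM sum. With all samples scaled to a common total, DS-5272 replicate 3 was highest for Fas and Tnfrsf10b, at 39.7 and 3.36 FPKM, and DS-5272 replicate 1 was highest for the other genes. The wide spread of Fas among the DS-5272 samples was therefore present under both scalings, with 18.0, 22.6 and 39.7 FPKM after the common total.

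Among the tested genes whose values over the 6 samples ran most like Fas were Rnf10, Tec, Myh10 and Flii. Their Pearson r with Fas, on log2(FPKM + 1), was from 0.998 to 0.999. They were picked as the highest of all genes tested and r is over only 6 samples of 2 groups, so it is a description. Myh10 had a mean of 0.952 FPKM after vehicle and 2.5 FPKM after DS-5272, and passed the filter only through its DS-5272 samples. Rnf10 stood at 81.1, 91.5 and 91.5 FPKM after vehicle and at 116, 137 and 174 FPKM after DS-5272, with DS-5272 replicate 3 highest, as in Fas.

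The rest of the pathway was followed in 7 lists of 65 genes, of which 62 had an entry of their own and 53 were tested. Of the 53, 20 rose and 6 fell at an adjusted p under 0.05 from limma, with a median log2 fold change of 0.21, where of all genes 24.2% rose and 22% fell. With the replicate block 23 rose and 6 fell, against 30.3% and 24.9% of all genes. After rescaling to a common total 8 rose and 10 fell, against 15.4% and 31.9% of all genes. The lists were chosen with earlier results known, so their counts, here and below, are to be read beside these shares and are not a test. Without vehicle replicate 2 the counts were 10 and 1 (14.6% and 12.5% of all genes) and without vehicle replicate 3 they were 11 and 2 (16.2% and 13.4%). The genes that fell numbered 3 without vehicle replicate 1 (15% of all genes) or DS-5272 replicate 2 (20.2%). The calls of Tnfrsf23, Tnfrsf21, Birc3, Traf5, Daxx, Casp8ap2 and Zbp1 were kept in all 17 alternatives without a minimum fold change, and that of Ltb in the 16 in which it was tested, its mean being too low for the filter of 5 FPKM.

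Among other receptors of the family, 3 of 6 tested genes rose. Tnfrsf23, a mouse TRAIL receptor without a death domain, went from 3.96 ± 0.462 to 10.6 ± 1.39 FPKM (SD, n = 3 each), a rise of 1.22 in log2 fold change (adjusted p = 0.0019 from limma). Tnfrsf21, death receptor 6, stood at 29.0, 28.1 and 30.7 FPKM after vehicle and 52.8, 62.5 and 73.4 FPKM after DS-5272, and Tnfrsf12a, the TWEAK receptor, rose by a log2 fold change of 0.61 from below 1 FPKM, a call lost with a common total and without vehicle replicate 2 or 3. Of the other ligands 2 were tested, Tnf and Ltb, and lymphotoxin beta rose from at most 0.413 FPKM after vehicle to between 1.06 and 2.75 FPKM after DS-5272 (adjusted p = 0.011 from limma). Ltb and Tnfrsf12a passed the filter only through their DS-5272 samples, so the change itself helped decide that they were tested. With no filter their adjusted p from limma was 0.021 and 0.022.

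**Figure D4:**
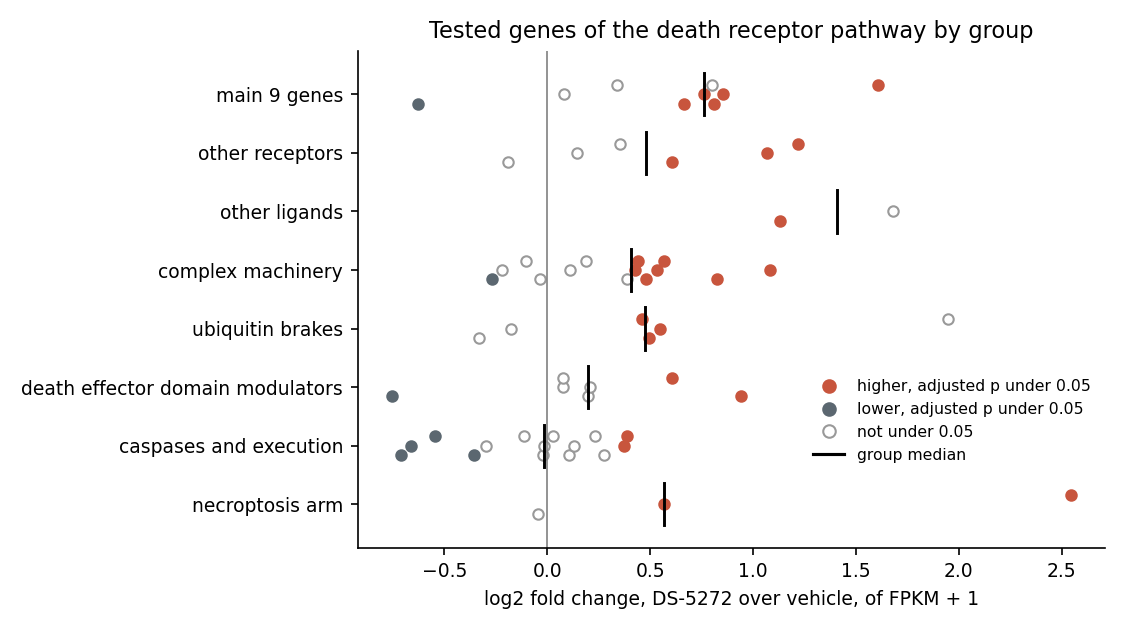
Log2 fold change of FPKM + 1 between DS-5272 and vehicle samples for the tested genes of the 9-gene set and of 7 pathway lists; each point is a gene, red and dark grey points passed an adjusted p of 0.05 from limma and the bar is the list's median. The median is 0.76 for the 9 genes and 0.41 for the receptor complex machinery, and after rescaling to a common total 8 of the 53 listed genes rose and 10 fell.

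The ubiquitin ligases and kinases that act at the receptor complex gave 7 risers and 1 fall among 14 tested genes, and 8 risers and 0 falls with the replicate block in limma. Birc3, the ubiquitin ligase cIAP2, stood at 17.1, 19.0 and 17.7 FPKM after vehicle and at 30.4, 34.6 and 56.6 FPKM after DS-5272, highest in DS-5272 replicate 3 as Fas was. Traf5 rose by 0.82 and Rnf31, the catalytic subunit of the linear ubiquitin ligase, by 0.57 in log2 fold change, the Rnf31 call being lost with a common total (adjusted p = 0.056 from limma). Map3k7, the kinase TAK1, fell by 0.27 on the log2 scale (adjusted p = 0.044 from limma), a call lost with the replicate block (adjusted p = 0.060 from limma), without the trend, without replicate 1 of both groups, and when any sample but DS-5272 replicate 3 was left out.

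Of the deubiquitinases and other brakes on that complex, 3 of 6 tested genes rose, and 4 with the replicate block. Spata2, Cyld and Tnip1 had log2 fold changes of 0.55, 0.49 and 0.46 (adjusted p = 0.023, 0.018 and 0.034 from limma), and all 3 calls were lost with a common total and without vehicle replicate 1 or 2. The Spata2 call was also lost without vehicle replicate 3 or DS-5272 replicate 2, the Tnip1 call without vehicle replicate 3 and with no filter, and those of Cyld and Tnip1 without replicate 1 of both groups. Tnfaip3, which encodes A20, was 4.77, 3.76 and 3.81 times as high after DS-5272 within same-numbered pairs, with replicate 1 far below the others in both groups. Its adjusted p was 0.23 from limma and 0.00032 with the replicate block; the gene was named after its values were seen.

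The list named for modulators of the death effector domain chain included risers and a fall. Its genes, Daxx among them, need not act on that chain. Of 7 tested genes, Daxx (log2 fold change 0.94) and Pea15a (0.61) rose and Casp8ap2 fell by 0.76 on the log2 scale (adjusted p = 0.0045, 0.010 and 0.0049 from limma). Casp8ap2 stood at 11.5, 10.2 and 9.98 FPKM after vehicle and at 5.96, 6.50 and 5.07 FPKM after DS-5272, without overlap. The Pea15a call was lost with a common total (adjusted p = 0.17 from limma).

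Downstream, among caspases and genes of execution, 2 of 15 tested genes rose and 4 fell, against 24.2% and 22% of all genes, and with the replicate block 2 rose and 5 fell. Casp6 and Casp9 rose by 0.39 and 0.37 in log2 fold change, and both calls were lost with a common total, with a common upper quartile and without replicate 1 of both groups. The Casp6 call was also lost without vehicle replicate 1 or 3, and the Casp9 call without vehicle replicate 2 or 3 or DS-5272 replicate 1 or 3. The largest falls were those of Pidd1, listed under its older symbol Lrdd, by 0.71 and of Parp1, a caspase substrate, by 0.66 on the log2 scale (adjusted p = 0.012 and 0.027 from limma). The Pidd1 call was lost without vehicle replicate 2 (adjusted p = 0.052 from limma) and the Parp1 call without any sample but DS-5272 replicate 1.

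The necroptosis arm, the alternative death route that opens when caspase-8 is blocked, gave 2 risers among 3 tested genes. Zbp1, a nucleic acid sensor that engages RIPK3, stood at 31.8, 19.0 and 14.4 FPKM after vehicle and at 165, 91.2 and 129 FPKM after DS-5272, a rise of 2.54 in log2 fold change (adjusted p = 0.0027 from limma, standard error 0.32). Mlkl, the membrane effector, stood at 51.7, 39.6 and 35.8 FPKM after vehicle and at 70.3, 59.8 and 57.8 FPKM after DS-5272 (adjusted p = 0.026 from limma), and its call was lost with a common total, a common upper quartile and quantile normalization (limma adjusted p = 0.32, 0.11 and 0.15). It was also lost without vehicle replicate 2 or 3 or DS-5272 replicate 1 or 2. The kinase gene Ripk3, named for its role, had a log2 fold change of −0.045 (95% interval −0.29 to 0.20).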

How the data were processed

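Gene expression was measured by RNA sequencing in 6 samples, 3 per group. Libraries were strand-specific, and the submitters' processing notes name cutadapt 1.8.1, FastQC, TopHat2 2.1.1, Cufflinks 2.2.1 and the build GRCm38. The authors deposited FPKM values per gene, in which transcript length and library size are already accounted for, in a table of 26632 lines, and the number of value columns without a sample was 0. Names on several lines (435) were summed, lines that join several genes (433) were not split, and 7954 lines held only 0. Depth was read from genes under 0.15 FPKM, scaled by 343 genes that have 1 transcript longer than 1500 nt, and gives no counting interval. Of these 343 genes, 83 fell in the most common range of values in vehicle replicate 1, which set the scale.

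Groups were compared with limma 3.58.1 in R 4.3.3 (lmFit, eBayes with trend, two-sided) on log2(FPKM + 1), keeping genes whose mean reached 1 FPKM, with Benjamini-Hochberg adjustment over 11130 genes and a threshold of 0.05. The script was tested on simulated data. Ratios were compared by an exact permutation test. Positions (GENCODE annotation of GRCm38), promoters (RefSeq) and figures were made in Python 3.11.15 using pandas 2.3.3, numpy 2.4.6 and matplotlib 3.10.9.

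The members and lists were chosen with earlier results of these data known. Named genes were the 9 members, Fasl, Tnf, Trp53, Mdm2, Cdkn1a, the up to 3 largest rises and 2 largest falls past the threshold in each pathway list, the gene of each marker list with the highest mean over the 6 samples, the 5 genes most like Fas and the 2 genes on each side of Cflar and Casp8. Other genes in the text, Meis1, Pbx3, Myb, Mef2c, Kit, Tfrc, Ripk3 and Tnfaip3, were named outside this rule. So were Serpinb6a, Faddos and Gm17084, whose exons overlap those of Ripk1 or Fadd. Some genes under the rule are not reported here. List genes in joined entries (Tnfsf12, Chuk, Dedd2, Hoxa9, Hoxa10) or without an entry (Trac, Hbb-bs, Hbb-bt) were left out, and Otulin, Pidd1, Epb42 and Adgre1 were found under older symbols. Of 51 genes under the rule, 15 have an exon that overlaps another annotated gene.

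Samples of each group are numbered 1 to 3, and no shared batch is named in the labels or methods. Deviations from the group means correlated by 0.658, 0.209 and 0.43 between same-numbered samples and by −0.576 to 0.335 between others. Every same-numbered pair was above 0.1, the limit set for also treating samples as paired by number. The value of 0.209 lies below 0.335, so these correlations do not show that same-numbered samples belong together. Blocked values and values within same-numbered pairs rest on this pairing, which was taken from the same data. The unblocked fit is given throughout, with the blocked value or count where the block changed the call of a named gene or the count of a list.

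The settings varied were the pseudocount (0.1), the filter (none, or a mean of 5 FPKM), the scaling (upper quartile, total as TPM, median ratio, quantile normalization), a block for replicate, eBayes without its trend, a minimum log2 fold change of 1, the highest line of a name in place of the sum, and each sample left out. Leaving out replicate 1 of both groups was added after values were seen.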

Additional observations from a re-analysis of the deposited data

How the results depend on the processing

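Of the 6 members called, Fas, Tnfrsf1a, Tnfrsf1b and Cflar kept their call in the 17 alternatives without a minimum fold change. Casp8 lost it with a common total and Fadd without replicate 1 of both groups, an alternative added after values were seen, which left 0 members lower (limma, against 1 before adjustment). A log2 fold change of at least 1 left 1 member higher, Fas, and 0 lower (limma, against 1 without the fold limit), 978 genes higher and 621 lower over all genes, and 5 pathway genes higher and 0 lower (limma, against 6 without the fold limit). As deposited 2697 genes were higher and 2451 lower. With a common total 1713 genes were higher and 3555 lower, and of the pathway genes 8 were higher and 10 lower. The part of risers among changed genes was 52.4% as deposited, 50.3% with the median ratio, 43.5% with quantile normalization, 41.3% with the upper quartile and 32.5% with the common total. Leaving out 1 sample at a time gave 1623 to 2934 genes higher and 1389 to 2432 lower, both lowest without vehicle replicate 2 (without vehicle replicate 3, 1492 lower), and 10 to 19 pathway genes higher and 1 to 6 lower. The cause of these shifts was not tested.

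With the replicate block 3367 genes were higher and 2771 lower, 7 members higher and 1 lower, and 23 pathway genes higher and 6 lower. Of the members it changed only the calls of Tnfsf10 and Ripk1.

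Tnfrsf10b changed sign with a common upper quartile (−0.0215) and a common total (−0.113), scalings that lowered the median of all genes, and ran from −0.24 to 0.312 with 1 sample left out. The NK marker Nkg7, at −0.0822 with all samples, ran from −0.249 to 0.0324 with 1 sample left out, at 0.00386 without vehicle replicate 3, and was 0.0146 without replicate 1 of both groups. The Tnfrsf1b to Tnfrsf1a ratio, at −0.0126 on the log2 scale, ran from −0.0569 to 0.0696 and was 0.0782 without replicate 1 of both groups. The effect of the lower estimated depth after DS-5272 was not tested. Among low genes, Tnfrsf10b had its fewest estimated fragments in DS-5272 replicate 2 (about 130). Tnfsf10 had its fewest in vehicle replicates 2 and 3 (about 59 and 63).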
